A study of Bos taurus with 30 samples.

Results

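The 2 mature microRNAs (miRNAs) described here, bta-miR-204 and bta-miR-211, were taken by name from the 1030 bovine mature miRNAs in the deposited table and followed, as miR-204 and miR-211, across 30 libraries of anterior pituitary. Each library came from 1 Holstein-Friesian bull calf euthanised at 12 weeks of age. The 15 HI calves had been offered 1.5 kg (10 L) of milk replacer per day and unrestricted concentrate since 2 weeks of age, and the 15 MOD calves 0.5 kg (4 L) of milk replacer and 0.5 kg of concentrate per day. Diet was the only labelled difference between the groups. The comparison asked whether the plane of nutrition in early life was accompanied by another level of either miRNA in the gland.

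A miRNA is a short RNA that guides silencing proteins to messenger RNAs, chiefly through the bases near its 5′ end, the seed. miR-204 and miR-211 share their seed and differ in only a few letters elsewhere, so they are usually treated as a single targeting family. Both are intronic passengers of melastatin-type cation channel genes, miR-204 of TRPM3 and miR-211 of TRPM1. TRPM3 is a heat-gated and steroid-gated channel, and TRPM1 is a channel of melanocytes and of retinal bipolar cells. miR-204 is known from the retinal pigment epithelium, the lens, the choroid plexus and insulin-secreting cells, and miR-211 from pigment cells. RefSeq places genes on the assembly ARS-UCD2.0, in which MIR204 lay inside TRPM3 and MIR211 inside TRPM1. That assembly is a later one than the ARS-UCD1.2 used for these data, and the host messenger RNAs were not analysed here.

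Reads on miRNAs ranged from 6650492 to 11086524 per library. Values are reads per 1e+06 reads (CPM) scaled by the authors with TMM factors, which correct a library's total for its composition, and whole reads could be recovered from them. A count of 0 would allow up to 3 reads, or 0.266 to 0.419 CPM. The tissue label was checked against miR-375 and miR-7, miRNAs of pituitary endocrine cells, whose mean levels were 146057 and 17064 CPM. A set of 9 libraries stood apart from the other 21 in 109 of the 419 miRNAs tested, or 26.0%. These 9, from 5 HI and 4 MOD calves, carry the highest label numbers, and the 21 come from 10 HI and 11 MOD calves. What the label numbers stand for is not stated in the sources used here. The boundary of the set came from earlier work on these libraries, in which miR-99b was used to place it. The diet differences of miR-204 and miR-211 and of their ratio are therefore given over all libraries and within these sets.

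miR-204 was an abundant miRNA of the calf anterior pituitary and miR-211 a scarce one. Mean expression of miR-204 was 3022 ± 609 CPM (SD, n = 30), which ranked 43rd of the 1030 miRNAs and made up 0.302% of the normalized total. Mean expression of miR-211 was 2.97 ± 1.29 CPM (SD, n = 30), which ranked 363rd. The mean CPM of miR-204 was thus 1018 times that of miR-211. Mature miRNAs are of nearly equal length, so CPM compares reads between them directly, although the ligation of adapters can favour some sequences over others and was not measured.

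Every library held both miRNAs above the limit that a count of 0 allows. The reads on miR-204 numbered 17007 to 42613 per library (median 25503) and those on miR-211 numbered 12 to 58 (median 20.5). All of these counts came out as whole reads, so no sign was seen in the deposited counts of either that reads had been divided between near-identical miRNAs. Reads of one that were placed whole on the other cannot be told apart in such counts. At 12 reads, in MOD replicate 13, the exact 95% Poisson interval of miR-211 ran from 0.794 to 2.68 CPM, and at 58 reads, in MOD replicate 6, it ran from 5.55 to 9.44 CPM. These intervals cover counting error only.

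No difference between diets was detected for miR-204. The lowest HI calf was at 1509 CPM, the median at 2855 CPM and the highest at 4554 CPM, against 2140, 3255 and 4159 CPM in MOD calves. The HI and MOD ranges overlapped, with 1 HI calf above every MOD calf and 1 below, and only 3 of 15 HI values exceeded the MOD median. The means were 2921 ± 684 CPM (SD, n = 15) for HI and 3123 ± 528 CPM (SD, n = 15) for MOD. The log2 fold change of HI against MOD was -0.11 (standard error 0.11; limma, FDR = 0.781 by Benjamini-Hochberg over the 419 miRNAs). Its 95% interval ran from -0.33 to 0.10, or from 0.794-fold to 1.07-fold, so that a change past the 1.5-fold threshold of the study lay outside it in both directions.

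For miR-211 the diets were also not told apart. HI calves ran from 1.69 CPM through a median of 2.62 CPM to 5.55 CPM, and MOD calves from 1.54 CPM through 2.42 CPM to 7.31 CPM. The MOD median was exceeded by 8 of 15 HI values, and the highest MOD value by none. The means were 2.98 ± 1.01 CPM (SD, n = 15) for HI and 2.96 ± 1.56 CPM (SD, n = 15) for MOD. HI exceeded MOD by 0.05 in log2(CPM + 1), a scale that understates the change of so scarce a miRNA (standard error 0.15, FDR = 0.945 from limma), with a 95% interval from -0.25 to 0.35. The sign of this small value turned with the scaling of the libraries, to -0.02 under upper quartile normalization (FDR = 0.960). Neither of the 2 miRNAs passed FDR < 0.1, which 3.58% of the 419 did, nor FDR < 0.1 with a fold change above 1.5, which 0.477% did.

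**Figure D1:**
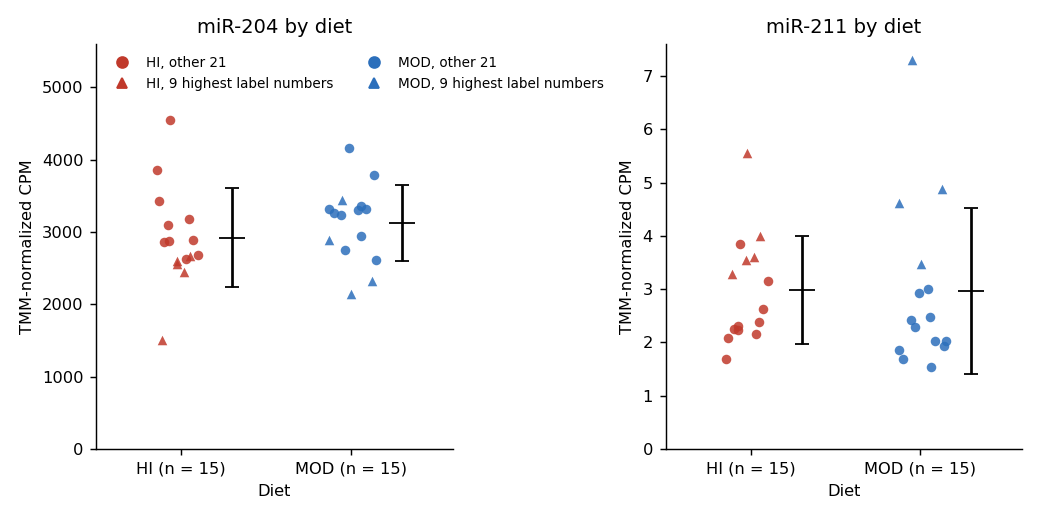
TMM-normalized CPM of miR-204 (left) and miR-211 (right) in each of the 15 HI and 15 MOD libraries, on linear axes from 0, with the mean and SD of each diet in black. Triangles are the 9 libraries with the highest calf label numbers. The diets overlap for both miRNAs, whereas the triangles sit low for miR-204 and high for miR-211.

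Within the label number sets no diet difference was detected. The set of 9 held only 5 HI and 4 MOD calves, which limits what its tests can detect. The difference was taken between the HI and MOD means of log2(CPM + 1), a scale that understates changes of the scarce miR-211. In the 21 libraries with lower numbers it was -0.04 for miR-204 (exact permutation test, two-sided, p = 0.668) and 0.12 for miR-211 (exact permutation test, p = 0.253). In the other 9 it was -0.20 for miR-204 (exact permutation test, p = 0.444) and -0.26 for miR-211 (exact permutation test, p = 0.246). The difference in the diet effect between the sets, tested as an interaction in limma, had FDR = 0.875 for miR-204 and FDR = 0.786 for miR-211 (unadjusted p = 0.425 and p = 0.0696).

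**Figure D2:**
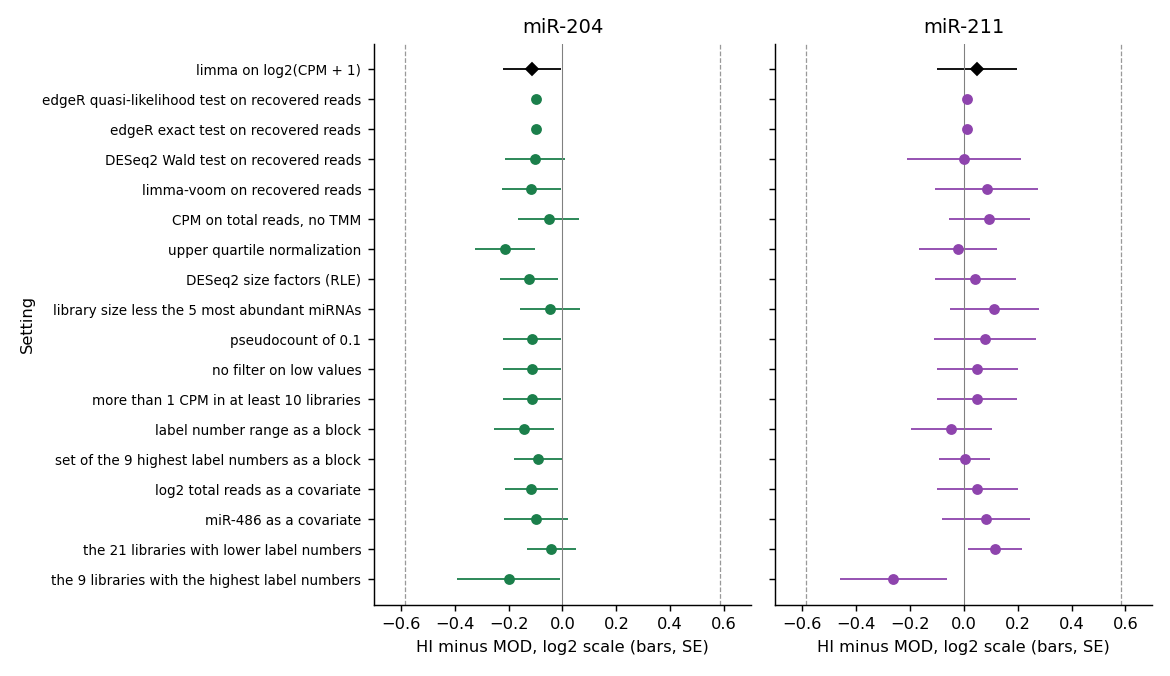
Difference of HI and MOD for miR-204 (left) and miR-211 (right) on the log2 scale in limma (black) and in 17 other settings, with standard errors as bars where the test gives one. Dashed lines mark a log2 difference of 0.585 (1.5-fold) in either direction. For the scarce miR-211 a 1.5-fold change falls inside these lines in the settings that use log2(CPM + 1). The values run from -0.21 to -0.04 for miR-204 and from -0.26 to 0.12 for miR-211, all between the dashed lines.

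Both miRNAs differed between the label number sets, and in opposite directions. In the 9 libraries with the highest label numbers miR-204 was at 1509 to 3440 CPM (median 2562 CPM), and in the other 21 it was at 2610 to 4554 CPM (median 3234 CPM). Ranges that do not overlap between the sets were found for 1.19% of the 419 miRNAs, and those of miR-204 did overlap, but 6 of the 9 lay below every one of the 21, and 1 of the 9 lay above the median of the 21. With diet in the model miR-204 was lower in the 9 by a log2 difference of -0.38 (standard error 0.10, FDR = 0.00530 from limma), or 0.769-fold. Lower calls at FDR < 0.1 were made for 14.3% of the 419 miRNAs, so such a call for miR-204 was not unusual in these libraries.

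miR-211 was higher in the same 9 libraries. It was at 3.28 to 7.31 CPM in them (median 3.99 CPM) and at 1.54 to 3.85 CPM in the other 21 (median 2.24 CPM). All 9 lay above the median of the 21, and 5 lay above the highest of the 21. The overlap was due to 1 library of the 21, HI replicate 2 with 3.85 CPM, which also had the highest miR-204 of all 30. The log2 difference was 0.70 (standard error 0.10, FDR = 1.01e-05 from limma with diet in the model), or 1.63-fold on the log2(CPM + 1) scale. Higher calls at FDR < 0.1 with a fold change above 1.5 were made for 1.91% of the 419. By the size of its difference in either direction, miR-211 ranked 10th of the 419 and miR-204 ranked 40th.

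**Figure D3:**
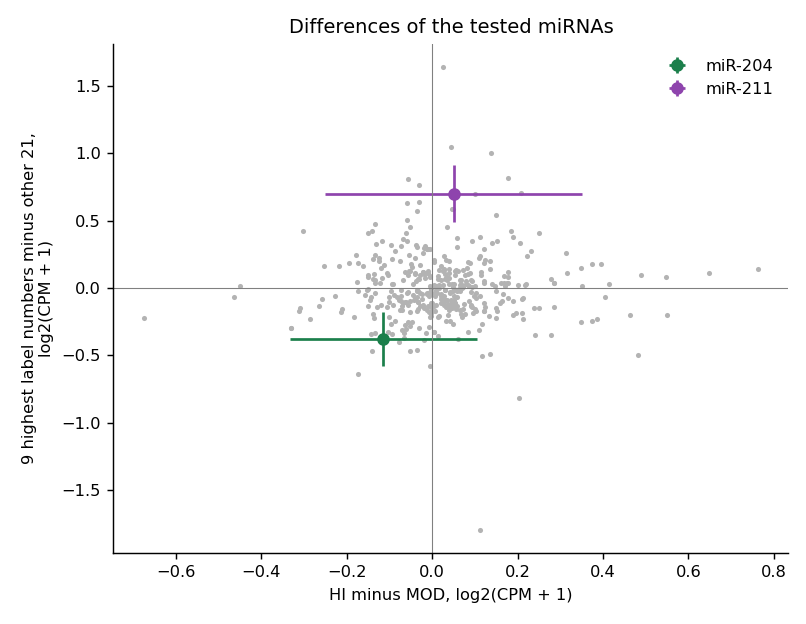
Log2 difference of HI and MOD (horizontal) against the log2 difference of the 9 libraries with the highest label numbers and the other 21 (vertical) for the 419 miRNAs tested, in grey. miR-204 and miR-211 are drawn with their 95% intervals from limma. Both lie near 0 along the diet axis, and on opposite sides of 0 along the label number axis, at -0.38 and 0.70.

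Both differences were present in each diet. The log2 differences by diet are between means of log2(CPM + 1), so those of miR-211 are smaller than its CPM means would give. Among HI calves the mean of miR-204 was 2357 ± 480 CPM (SD, n = 5) in the set of 9 and 3204 ± 600 CPM (SD, n = 10) in the others, a log2 difference of -0.45 (exact permutation test, p = 0.00300). Among MOD calves it was 2699 ± 588 CPM (SD, n = 4) against 3277 ± 434 CPM (SD, n = 11), a log2 difference of -0.29 (exact permutation test, p = 0.0440). In limma on MOD calves alone that difference did not pass FDR < 0.1 (FDR = 0.169). For miR-211 the means were 3.99 ± 0.905 CPM (SD, n = 5) and 2.47 ± 0.612 CPM (SD, n = 10) in HI calves, a log2 difference of 0.52 (exact permutation test, p = 0.00200). In MOD calves they were 5.06 ± 1.62 CPM (SD, n = 4) and 2.20 ± 0.474 CPM (SD, n = 11), a log2 difference of 0.90 (exact permutation test, p = 0.000733, the smallest that 4 against 11 libraries can give).

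The ratio of the reads on the 2 miRNAs within a library does not depend on how libraries are scaled. In the 9 libraries there were 1.38 to 2.18 reads of miR-211 per 1000 reads of miR-204 (median 1.62), and in the other 21 there were 0.439 to 1.18 (median 0.748). The sets did not overlap. Among all 87571 pairs of tested miRNAs, the ratio of 1.15% did not overlap between the sets. The mean log2 ratio was higher by 1.09 in the 9 (standard error 0.10), or 2.12-fold, with 1 CPM added to each miRNA. On the reads themselves it was higher by 1.31 (standard error 0.13), or 2.48-fold. An exact permutation test of 9 against 21 gave p = 6.99e-08, the smallest it can give, although the sets were not formed at random. This comparison was added after seeing the data. The log2 ratio is the difference of the 2 log2 levels, so its p-values, also within diets, are not evidence separate from theirs. The ratio with 1 CPM added was 1.97-fold in HI calves (exact permutation test, p = 0.000333) and 2.29-fold in MOD calves (exact permutation test, p = 0.000733), in each the smallest p possible.

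Between diets the ratio did not differ beyond its spread. HI libraries held 0.439 to 2.18 reads of miR-211 per 1000 of miR-204 (median 0.845) and MOD libraries 0.508 to 2.12 (median 0.749). With 1 CPM added to each miRNA, the log2 ratio was higher in HI by 0.16 (standard error 0.21; two-sided permutation test, p = 0.435). On the reads themselves it was higher by 0.20 (standard error 0.25, two-sided permutation test, p = 0.438). Within the 21 libraries the log2 ratio with 1 CPM added was higher by 0.16 (exact permutation test, p = 0.188), and within the 9 the difference was -0.06 (exact permutation test, p = 0.730).

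**Figure D4:**
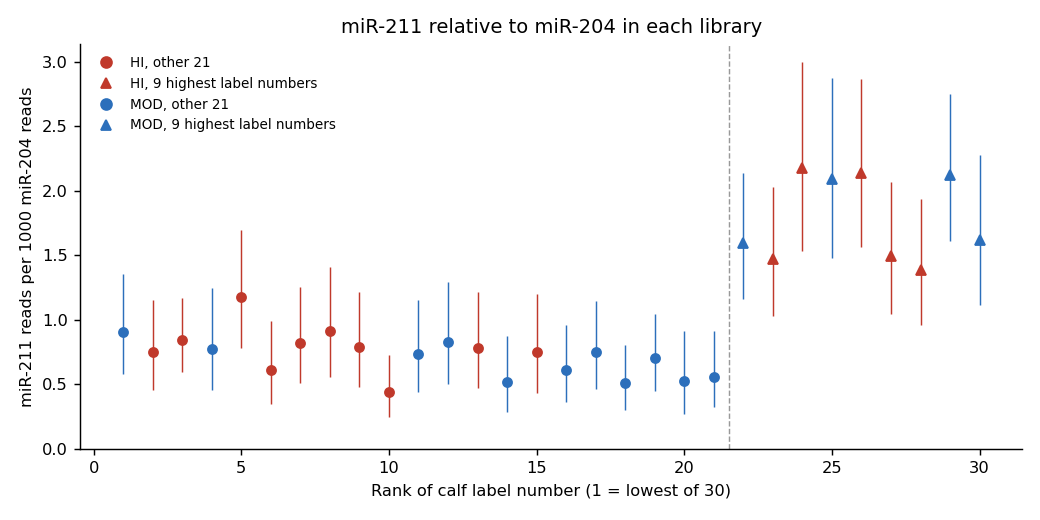
Reads of miR-211 per 1000 reads of miR-204 in each library, ordered by the rank of the calf's label number. Bars are exact 95% Poisson intervals of the miR-211 count, and the dashed line separates the 21 lower from the 9 highest numbers. Every library to the left of the line lies at or below 1.18 and every library to the right at or above 1.38, in both diets.

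As the libraries fell into these sets, the relation of the 2 miRNAs to each other was examined within them. In the 21 libraries Pearson's r of the log2 levels was 0.25 (permutation p = 0.272, adjusted p = 0.408) and Spearman's rho was 0.02 (permutation p = 0.944, adjusted p = 0.944). In the 9 libraries r was 0.71 (exact permutation p = 0.0349, adjusted p = 0.137) and rho was 0.73 (exact permutation p = 0.0311, adjusted p = 0.187). Without the 2 libraries farthest from the median of miR-204, r fell to 0.36 in the 9 and turned to -0.31 in the 21, so the values rested on those libraries. The adjustment was over 6 relations, the other 4 being those of each miRNA with log2 total reads in each set, none of which had an adjusted p under 0.137.

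**Figure D5:**
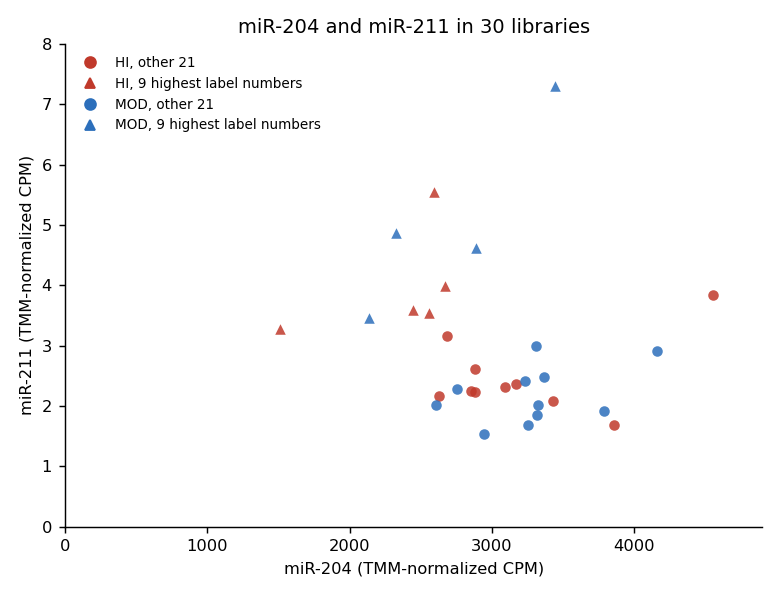
Level of miR-211 against that of miR-204 in the 30 libraries, in TMM-normalized CPM on linear axes. Triangles are the 9 libraries with the highest label numbers, which lie to the upper left of most of the other 21, with miR-211 at 3.28 CPM or more.

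The miRNAs with the profile most like that of each member were found by Spearman's rho of the log2 levels over the 30 libraries. For miR-204 they were miR-10a (rho = 0.67), miR-1224 (0.64), miR-432 (0.60), miR-374b (0.58) and miR-10b (0.56). Of these, miR-10a and miR-10b are miRNAs of the HOX gene clusters, and they were lower in the 9 libraries by log2 differences of -1.80 and -0.82 (FDR = 3.18e-05 and 0.0273 from limma). miR-374b was also lower (FDR = 0.0764), and miR-1224 and miR-432 were not called (FDR = 0.140 and 0.289). Lower calls at FDR < 0.1 were made for 14.3% of all miRNAs tested. Within the 21 libraries the rho of miR-204 with the 5 was 0.23 to 0.58, highest for miR-432, a member of the large imprinted miRNA cluster. For miR-211 the 5 were miR-95 (0.64), miR-125b (0.61), miR-6524 (0.61), miR-100 (0.60) and miR-99b (0.59). Of these, miR-99b had been used to place the boundary of the set, and each of the other 4 was higher in the 9 libraries at FDR < 0.1. Such calls were made for 11.7% of all 419 miRNAs tested. The 5 were chosen by likeness over both sets together, which favours such calls, so the count is no separate result. Within the 21 libraries the rho of the 5 with miR-211 was -0.11 to 0.26. miR-211 ranked 365th of 418 in likeness to miR-204, with rho = -0.35.

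The spread of both miRNAs was on the wide side for their level. The SD of the log2 level over the 30 libraries was 0.31 for miR-204 and 0.41 for miR-211. Among the 50 tested miRNAs nearest in mean CPM, 7 had a larger SD than miR-204 and 7 a larger SD than miR-211. Of the same neighbours, 18 of the 50 nearest to miR-204 differed between the label number sets at FDR < 0.1. Of the 50 nearest to miR-211, 4 did. Such calls were made for 109 of the 419 miRNAs tested, or 26.0%. The share among the neighbours of miR-204 was thus above that of all miRNAs tested, and the share among those of miR-211 below it.

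miR-204 and miR-211 were set beside other intronic miRNAs in paralogous host genes, of which 4 further pairs were in the table. These were miR-103 and miR-107 of the PANK genes of coenzyme A synthesis, miR-26a and miR-26b of the CTDSP phosphatase genes, miR-33a and miR-33b of the SREBF genes of sterol and fatty acid synthesis, and miR-208a and miR-208b of cardiac myosin genes. Of the 8 miRNAs 7 were tested. Between diets 3 of the 7 were lower in HI calves at FDR < 0.1 (miR-26a, miR-26b and miR-33a, by log2 fold changes of -0.29, -0.13 and -0.23) and none was higher, where 1.67% of the 419 were called lower. These calls depended on the scaling of the libraries. With upper quartile normalization and with DESeq2 size factors 3 of the 7 were again lower and 0 higher. On total reads 1 of the 7 was lower (miR-26a, by a log2 fold change of -0.22) and 1 higher (miR-208b), and with library sizes less the 5 most abundant miRNAs 0 were lower and 1 was higher. The median of the 7 was -0.13, against 0.02 over all 419. With 1 CPM added to each miRNA, the mean log2 ratio was -9.60 for miR-211 over miR-204, and between -2.50 and 3.43 in the other pairs. The TRPM pair was thus the most uneven of the 5. Its SD over all libraries was 0.57, against 0.06 for miR-107 over miR-103, 0.24 for miR-26b over miR-26a, 0.31 for miR-33b over miR-33a and 0.55 for miR-208b over miR-208a. Within the label number sets the SD of the TRPM pair was smaller, at 0.24 in the 9 libraries and 0.27 in the 21. The SDs of the other pairs were not computed within the sets. Counting error also adds to the SD where a miRNA is as scarce as miR-211 or miR-208a (means of 2.97 and 1.23 CPM).

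Between the label number sets, the ratio of miR-26b over miR-26a was higher in the 9 by 0.20 and that of miR-33b over miR-33a was lower by a log2 difference of -0.27 (exact permutation tests, each with adjusted p = 0.0488 over the 5 pairs), against 1.09 for miR-211 over miR-204 (adjusted p = 3.49e-07). For miR-107 over miR-103 the difference was 0.00090 (adjusted p = 0.969). Between diets a ratio differed in 1 of the 5 pairs, miR-107 over miR-103, by 0.07 (permutation test, adjusted p = 0.000800). The counts of miR-103 and miR-26a were not whole reads in 33.3% and 60% of the libraries, whereas those of miR-204 and miR-211 were whole in all. Divided reads can also add up to whole counts, so these shares may understate the division.

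Marker miRNAs of other cell types were compared along the same lines. In whole tissue, fewer cells of a type and less RNA per cell cannot be told apart. Over all 419 miRNAs 11.7% were higher and 14.3% lower in the 9 libraries at FDR < 0.1. Of the 10 pituitary endocrine miRNAs 5 were higher and 2 lower. miR-375 was higher by 0.37 (FDR = 0.000463 from limma), and the summed level of the 10 was 197754 to 257699 CPM in the 9 and 157675 to 239630 CPM in the 21. Of the 8 miRNAs of eye and neuroepithelium, tissues where miR-204 is prominent, 5 were tested. The endocrine list also holds 3 of the 8 (miR-182, miR-183 and miR-96). miR-96 was higher by 0.42, and miR-183 was lower by a log2 difference of -0.27, so both calls fell on shared miRNAs. The summed level was 20341 to 34074 CPM in the 9 and 21439 to 37424 CPM in the 21. Nearly all of it was the shared miR-182 and miR-183, with means of 26000 and 2167 CPM. Outside the endocrine list, miR-9-5p had a mean of 29.2 CPM and miR-184 of 6.45 CPM, and neither was called (FDR = 0.866 and 0.378 from limma). In this list miR-124a, a marker of neurons, was at 0 in 4 libraries and reached 4.06 CPM at most.

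Of the 11 neural miRNAs, 4 of which are also in the eye list, 6 were tested. Of these 6, 1 was higher in the 9 libraries (miR-128, by 0.38), and of the 6 white blood cell miRNAs 1 was higher (miR-146a, by 0.32), which for lists of 6 is close to the 11.7% of all miRNAs. The summed levels were 2058 to 2520 CPM in the 9 and 1949 to 2448 CPM in the 21 for the neural list, and 556 to 915 CPM and 567 to 1042 CPM for the white blood cell list. miR-203 of stratified epithelium was not analysed here. None of the 3 red blood cell, 6 stromal and 1 stratified epithelium miRNAs tested passed FDR < 0.1 between the sets. Their summed levels in the 9 and the 21 were 10578 to 26170 and 11599 to 27422 CPM (red blood cell), 38716 to 49712 and 32239 to 183489 CPM (stromal), and 113 to 749 and 150 to 593 CPM (stratified epithelium). Between diets no marker in these lists passed FDR < 0.1 in limma other than miR-205 of stratified epithelium, which was lower in HI calves. The study, which used edgeR, also reported the red blood cell miRNAs miR-451 and miR-144 as higher in HI calves. In limma on log2(CPM + 1) these were higher in HI by 0.55 and 0.46, with FDR = 0.190 and 0.115. The third of the list, miR-486, went the other way, with a log2 fold change of -0.27 (FDR = 0.274 from limma). It was also the most abundant, at a mean of 19194 CPM against 130 CPM for miR-451 and 4.44 CPM for miR-144. Why these calls differed from those of the study was not tested. Depth moved with the set to some extent, at 7926451 to 11086524 reads in the 9 and 6650492 to 9577361 in the 21. With log2 total reads in the model the label number differences were -0.32 for miR-204 (FDR = 0.0179 from limma) and 0.74 for miR-211 (FDR = 1.03e-05). The part of the endocrine, eye and neural miRNAs in the opposite differences of miR-204 and miR-211 was not tested.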

How the data were processed

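Small RNA libraries of 30 anterior pituitaries were sequenced, 1 per calf, and grouped by the treatment label. The authors trimmed reads with Cutadapt, filtered them by length and against other short RNA classes, aligned them with Bowtie to ARS-UCD1.2, and counted known mature miRNAs with miRDeep2. What was deposited is a normalized signal, CPM that the authors scaled by TMM factors in edgeR, with column sums of 828807 to 1090510. Whole reads were obtained from the spacing of the low values. At least 95.0% of values under 100 reads in a library lay within 0.01 of a whole read.

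The main comparison used limma 3.58.1 in R 4.3.3 (eBayes with trend) on log2(CPM + 1). It covered 419 miRNAs kept by filterByExpr of edgeR on the reads, with Benjamini-Hochberg adjustment and the thresholds of the study (FDR < 0.1, fold change > 1.5). edgeR 4.0.16 and DESeq2 1.42.0 were run on recovered reads, rounded to whole numbers, as alternatives. Permutation tests of differences between 15 and 15 libraries used 100000 resamples, and all with a group of 11 or fewer were exact. Scripts were tested on simulated data. p-values measure the spread between calves. The tests carry no term for the blocks in which calves had been allotted to diets, which the labels used here do not give.

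The members, lists and label number sets were chosen with earlier results of these data known. The ratio between the label number sets was added after seeing the data. Named miRNAs are the 2 members, the 5 most like each, miR-375 and miR-7, and members of the lists described; miR-99b was also named as the miRNA that placed the boundary of the set. Replicates are numbered in the order of the sample list. No sequence is shown.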

Additional observations from a re-analysis of the deposited data

How the results depend on the processing

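No paired analysis was possible because calves of the 2 diets have no common number in their labels. The study formed its diets within blocks of age, weight, sire and farm, and the labels used here do not give the block of a calf. Neither miR-204 nor miR-211 passed the thresholds between diets in any of the 17 alternatives or the 30 fits without 1 calf each. The log2 fold change of miR-211 changed sign in 4 of them. It was -0.021 with upper quartile normalization and -0.26 in the 9 libraries with the highest label numbers. It was -0.047 with calves blocked by a digit inside their label numbers, and -0.0039 without HI replicate 13. That digit does not follow the size of the label numbers, and each of its values occurs in both label number sets. Over the fits without 1 calf the log2 fold change of miR-211 ran from -0.0039 to 0.13, and that of miR-204 from -0.16 to -0.05. The log2 ratio of miR-211 to miR-204 between diets was -0.061 within the 9 libraries and ran from 0.09 to 0.24 without 1 calf. Differences between the label number sets kept their direction throughout. Only that of miR-204 in MOD calves alone, -0.29, missed FDR < 0.1. Over both diets without 1 calf, that of miR-204 ran from -0.44 to -0.30, that of miR-211 from 0.61 to 0.74, and that of the ratio from 1.04 to 1.12. With the boundary moved by 1 calf, to the 8 highest numbers, which was chosen after seeing the data, they were -0.40 and 0.66. The correlation of the members was -0.24 over all 30 libraries, which mixes the sets, -0.36 to -0.19 without 1 calf, 0.25 in the 21 libraries and 0.71 in the 9. The number of miRNAs past both thresholds between diets was 2. It was 4 with edgeR's quasi-likelihood and exact tests and with DESeq2, 1 with upper quartile normalization and in the 21 libraries, and 2 to 4 without 1 calf. It was 0 with miR-486 as a covariate in limma (41 at an unadjusted p under 0.05) and 0 in the 9 libraries in limma (26 at an unadjusted p under 0.05). The cause of these moves was not tested. At 12 to 58 reads per library, counting error limits what can be said of miR-211 in single calves.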
